A study of Mus musculus with 10 samples.

Results

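The voltage- and calcium-gated potassium channels described here are 9 genes of subunits that shape the firing of Purkinje, basket and granule cells. They were chosen by name, and all 9 were found by their GENCODE M21 symbol among the 53447 genes listed in each library. TPM is transcript abundance scaled to transcript length and to a library total. The filter on low values kept genes with at least 0.5 TPM in at least 5 of the 10 libraries. All 9 passed it. They are *Kcna1*, *Kcna2* and *Kcnab2* of the Kv1 channels, *Kcnc1* of the Kv3 channels, *Kcnd2*, *Kcnd3* and *Kcnip4* of the Kv4 channels, and the calcium-gated *Kcnma1* and *Kcnn2*. The cerebella came from 5 Dscam del17/del17 mice (DscamKO in the labels) and 5 wild-type mice (WT; Control in the labels), all of the BALB/c strain and aged postnatal day 21 (P21). The mutants were homozygous for a spontaneous loss-of-function deletion within an exon of *Dscam*, a cell adhesion molecule of the immunoglobulin superfamily, and all their cells carried it. Each library held the RNA of the whole cerebellum of 1 mouse, so that a value sums all its cell types, and fewer cells of a type and less RNA per cell cannot be told apart. Both sexes were used, and the labels give no sex.

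Voltage-gated potassium channels open when the membrane depolarises and carry the outward current that ends an action potential. Kv1 channels open at low voltages and sit on axons, where those of basket cell terminals hold back transmitter release onto Purkinje cells, whereas Kv3 channels open and close fast and let neurons fire at high rates. Kv4 channels carry the transient A-type current of granule cells, and the calcium-gated BK and SK channels couple calcium entry to the repolarisation and the pacemaking of Purkinje cells.

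Channels of this superfamily share the selectivity filter, the stretch of the pore that lets potassium pass and holds back sodium. The coding bases around it are printed to show how alike these paralogous transcripts are where their proteins are most conserved. They were read from GENCODE M21 transcripts on GRCm38, 5′ to 3′ on the coding strand, with the 5 codons of the filter signature in capitals. *Kcna1* had it at chr6:126642222-126642248 on the minus strand, in exon 2 of 2, and *Kcna2* at chr3:107105218-107105244 on the plus strand, in exon 3 of 3. *Kcnc1* had it at chr7:46427967-46427993 on the plus strand, in exon 2 of 4, and *Kcnma1* at chr14:23528407-23528433 on the minus strand, in exon 8 of 31. In *Kcnd2* (plus strand, chr6:21217400-21714147) and *Kcnd3* (plus strand, chr3:105459908-105658623) an intron lies within these bases, which join exons 1 and 2. The filter bases of *Kcnn2*, also a pore subunit, were not read.
Kcna1: atgaccACTGTGGGATACGGTgacatg
Kcna2: atgacaACTGTAGGCTATGGAgacatg
Kcnc1: atgacgACACTGGGCTATGGAgacatg
Kcnd2: atgacaACACTGGGGTATGGCgacatg
Kcnd3: atgactACACTGGGATATGGAgacatg
Kcnma1: atgtctACAGTGGGTTATGGGgacgtt
*Kcnc1* and *Kcnd3* differed at 1 of the 15 capital bases, *Kcnd2* and *Kcnd3* at 2, and *Kcna1* and *Kcna2* at 4. Over the aligned bases of the coding sequences *Kcna1* and *Kcna2* were 74.5% identical, and *Kcnd2* and *Kcnd3* were 73.9% identical. The longest identical run between their whole transcripts was 20 bases for *Kcna1* and *Kcna2* and 23 bases for *Kcnd2* and *Kcnd3*. Reads of 151 cycles are longer than these runs. No window of 151 bases of *Kcna1*, *Kcna2*, *Kcnab2*, *Kcnc1*, *Kcnd2* or *Kcnip4* transcripts occurred in a transcript of another gene. For *Kcnma1* 4.45% of the windows, for *Kcnn2* 4.04% and for *Kcnd3* 0.165% also occurred in a transcript of another gene, on either strand. Whether the strand of a read told these apart was not checked.

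The libraries also differed from one another within a genotype. The mRNAs encoded by the mitochondrial genome, 13 genes, summed to between 34717 and 44973 TPM in the mutant libraries and to between 15206 and 44670 TPM in the WT libraries. All 13 had a log2 fold change above 0, mutant minus WT (median 0.41). Effects of genotype and of single libraries on them cannot be told apart. WT replicate 5 was at the lower end and also had the fewest genes at 0.5 TPM or more, 15623 against 17101 to 17763 in the other 9 libraries. The TPM of the listed genes did not have an equal total. They summed to 684771 in WT replicate 5 and 757307 in WT replicate 3, against 775148 to 838532 in the other libraries. Read numbers cannot be recovered from TPM, and neither the depth nor a counting error is given for that reason. *Dscam* itself (chromosome 16, 96590840 to 97170752, minus strand) had 5.11, 5.42, 4.53, 3.73 and 3.05 TPM in mutant replicates 1 to 5, against 8.04, 8.43, 6.79, 9.05 and 6.29 TPM in WT replicates 1 to 5. All 5 mutant values lay below all WT values, although TPM of the whole gene does not measure the deletion. The log2 fold change, mutant minus WT throughout, was -0.82 (95% interval -1.33 to -0.32, adjusted p = 0.779 from limma). The exact two-sided permutation test gave p = 0.0079, the smallest that the 252 divisions of 10 libraries into 5 and 5 allow.

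Of the 9 channel genes, 0 passed the threshold of 0.05 on the adjusted p of limma, which 0 of all 17168 genes tested passed (0.0%). At an unadjusted p below 0.05, limma took 0 of the 9, and the exact permutation test also took 0 of the 9. Among all genes tested, limma took 953 at that level (5.55%), 2.29% higher and 3.26% lower in the mutant. In 0 of the 9 were the genotypes without overlap, which was so for 1.22% of all genes tested (0.419% higher and 0.798% lower in the mutant). The log2 fold changes of the 9 ran from -0.29 (*Kcnc1*) to 0.21 (*Kcnab2*), 6 of them above 0 and 3 below, with a median of 0.10. Over all genes tested the median was 0.05, and 56.0% were above 0. All 9 were under 0.5 in size, as were 78.0% of all genes tested. The sign of that median rested on a single WT library. Without WT replicate 5 the median of the 9 was -0.084 and 1 of the 9, *Kcnab2*, stayed above 0, while the median of all genes was -0.037. The median of the 9 was 0.033 without WT replicate 3, 0.060 without mutant replicate 4, 0.014 without mutant replicate 1 and 0.0056 without mutant replicate 5, against 0.23 without WT replicate 1 and 0.19 without WT replicate 2.

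**Figure D1:**
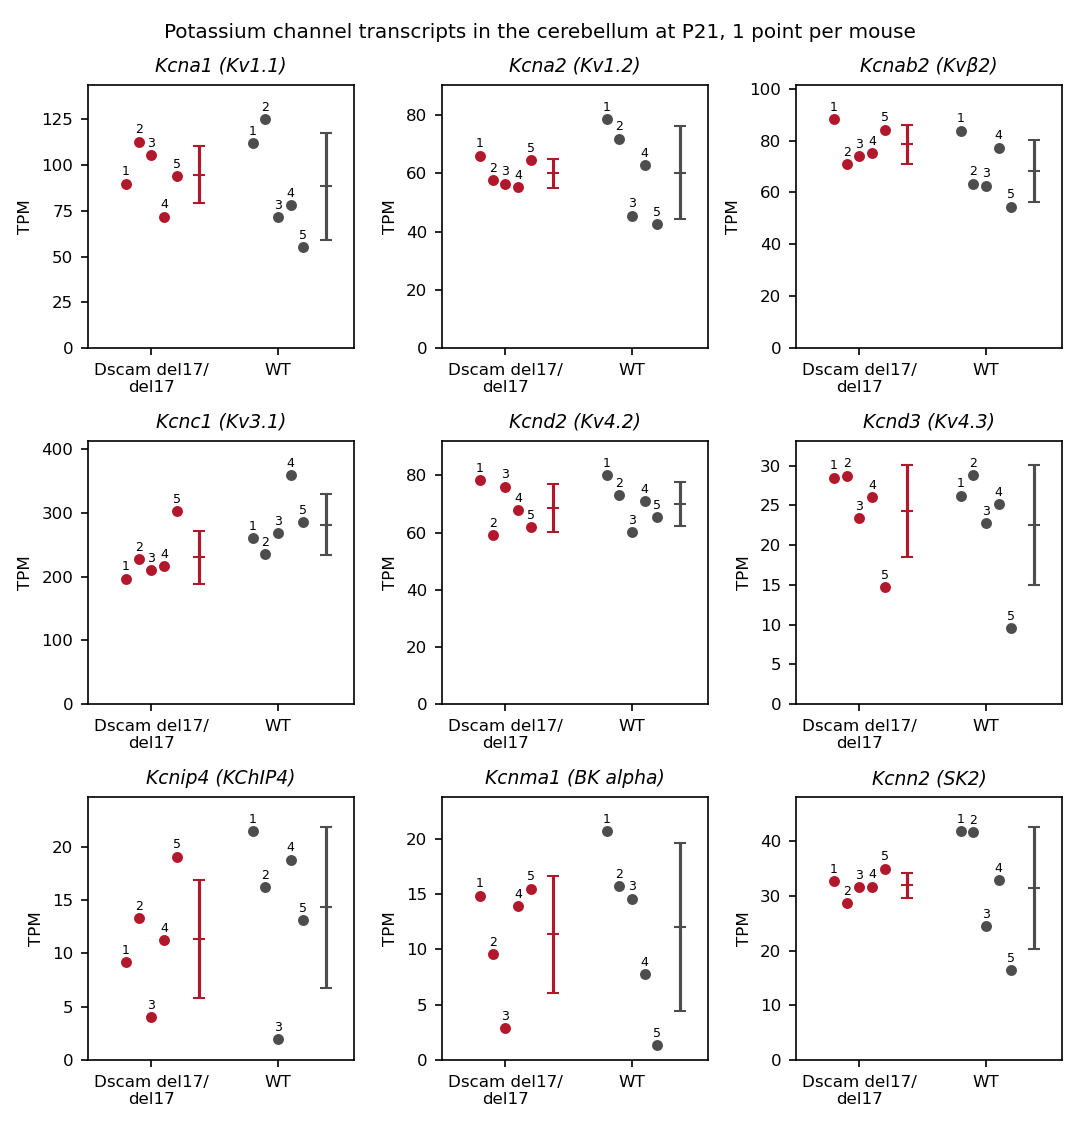
Level (TPM, y axis) of the 9 potassium channel genes in P21 cerebella. Each point is 1 mouse (Dscam del17/del17 left of WT), and bars give the mean and SD of the 5 mice of each genotype. The genotypes overlapped for every gene. *Kcnc1* had 4 of 5 mutant mice below the lowest WT mouse, and WT replicate 5 was the lowest of the 10 for 6 of the 9 genes.

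**Figure D2:**
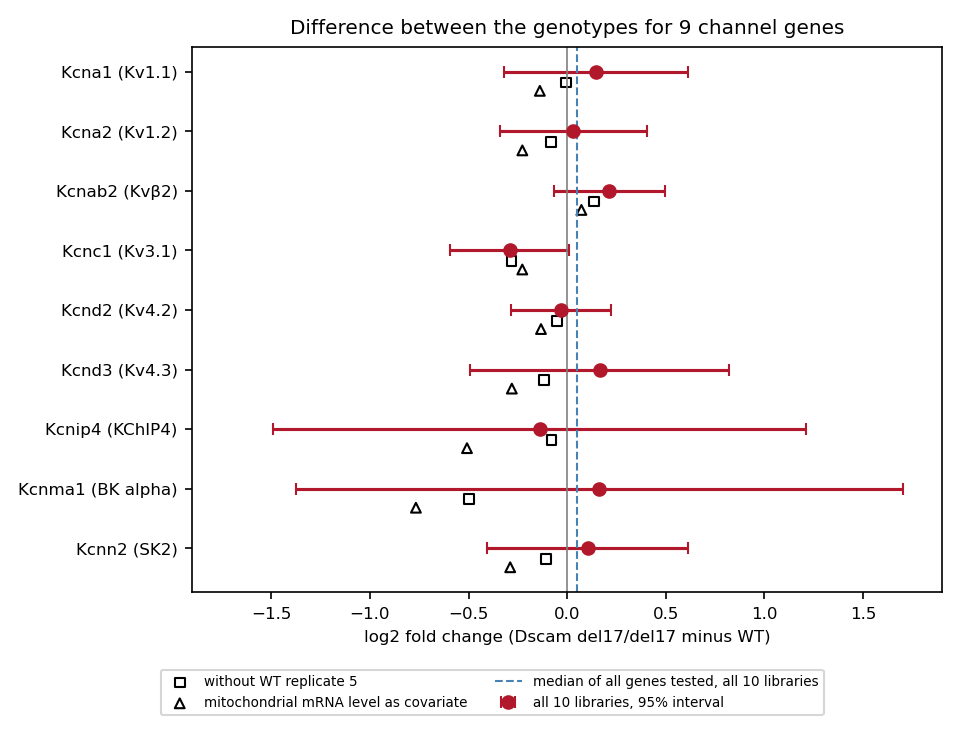
Log2 fold change (Dscam del17/del17 minus WT) of the 9 genes on the x axis, with the 95% interval over all 10 libraries (filled), the value without WT replicate 5 (squares) and the value after adding mitochondrial mRNA as a covariate (triangles). All intervals contained 0, and the squares of *Kcna1*, *Kcna2*, *Kcnd3*, *Kcnma1* and *Kcnn2* lay on the other side of 0 from the filled points.

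*Kcnc1* encodes Kv3.1, the fast delayed rectifier of granule cells and of other neurons that fire at high rates. Its gene spans 46396497 to 46438704 on the plus strand of chromosome 7. It had the highest level of the 9, above 97.5% of all genes tested. Mutant replicates 1 to 5 had 197, 227, 210, 216 and 302 TPM, against 260, 235, 268, 360 and 285 TPM in WT replicates 1 to 5. In 4 of the 5 mutants the level was below that of every WT mouse, but mutant replicate 5 was above 4 of the 5 WT mice. The means were 230 ± 41.7 TPM in the mutant and 282 ± 47.2 TPM in WT cerebella (SD, n = 5 each). On the log2 scale the mutant minus WT difference was -0.29 (95% interval -0.59 to 0.01), with an unadjusted p of 0.0581 and an adjusted p of 0.779 in limma. The exact permutation test gave p = 0.0952. This was the largest difference in size among the 9 genes, and it did not pass either test. It kept its sign under all 23 other ways of processing the values, between -0.39 and -0.20. Of these, other filters on the genes and the replicate number as a block cannot change a fold change. Without mutant replicate 5 that of *Kcnc1* was -0.39 (unadjusted p = 0.00867, adjusted p = 0.762 from limma).

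The ratio of *Kcnc1* to *Kcnd2*, a Kv4 subunit of the same granule cells, was 3.44 ± 0.954 in the mutant and 4.07 ± 0.810 in WT mice (SD, n = 5 each), and the values overlapped. Markers of the granule cell lay on the same side of 0 as *Kcnc1*, with 9 of 11 below 0 (median log2 fold change -0.14). At an unadjusted p below 0.05 limma took 3 of the 11 as lower in the mutant, against 3.26% of all genes tested. For 2 of the 11 all mutant values lay below all WT values, against 0.798% of all genes tested. The markers summed to 3304 to 3592 TPM in the mutant and to 3380 to 4179 TPM in WT libraries. *Kcnc1* per 100 TPM of these markers was 6.59 ± 1.10 TPM in the mutant and 7.53 ± 1.32 TPM in WT cerebella, from 5.53 to 8.43 TPM and from 6.10 to 9.10 TPM. Whether the level of granule cell RNA had a part in the *Kcnc1* value was not tested further.

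Of the Kv1 channels, *Kcna1* encodes Kv1.1, whose mutations cause episodic ataxia in humans. On chromosome 6 it covers 126640397 to 126646384, minus strand. Mutant replicates 1 to 5 had 89.9, 113, 105, 71.9 and 93.8 TPM, against 112, 125, 71.4, 78.0 and 55.3 TPM in WT replicates 1 to 5. The highest and the 2 lowest of the 10 were WT, so that the WT values enclosed those of the mutant. The means were 94.7 ± 15.7 TPM in the mutant and 88.4 ± 29.2 TPM in WT cerebella (SD, n = 5 each), with a log2 fold change of 0.15 (95% interval -0.32 to 0.61, adjusted p = 0.875 from limma). The exact permutation test gave p = 0.556. Without WT replicate 5 the log2 fold change was -0.006.

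*Kcna2* encodes Kv1.2, which joins Kv1.1 in the channels of axons and basket cell terminals. On chromosome 3 it spans 107101146 to 107115005, on the plus strand. Its level was 66.1, 57.7, 56.4, 55.3 and 64.4 TPM in mutant replicates 1 to 5, against 78.7, 71.9, 45.5, 62.8 and 42.5 TPM in WT replicates 1 to 5. The mutant values lay close together, between 2 lower and 2 higher WT values. The means were 60.0 ± 4.91 TPM in the mutant and 60.3 ± 15.9 TPM in WT cerebella, with a log2 fold change of 0.03 (95% interval -0.34 to 0.41, adjusted p = 0.968 from limma) that fell below 0, to -0.084, without WT replicate 5. It was also below 0 without WT replicate 3 (-0.059) and without mutant replicate 1 (-0.004). The ratio of *Kcna1* to *Kcna2* within a library was 1.59 ± 0.302 in the mutant and 1.46 ± 0.203 in WT mice (SD, n = 5 each), and *Kcna1* was above *Kcna2* in all 10 libraries.

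*Kcnab2* encodes Kvβ2, the cytoplasmic beta subunit that binds Kv1 channels and takes part in bringing them to axons. Chromosome 4 carries it on the minus strand, from 152390742 to 152477871. In mutant replicates 1 to 5 it was at 88.4, 70.9, 74.1, 75.0 and 84.3 TPM, against 83.9, 63.4, 62.7, 77.3 and 54.5 TPM in WT replicates 1 to 5. The mutant held the 2 highest values of the 10 and WT the 3 lowest, with overlap between them. The means were 78.5 ± 7.42 TPM in the mutant and 68.4 ± 11.9 TPM in WT cerebella (SD, n = 5 each). The log2 fold change of 0.21 (95% interval -0.07 to 0.49, adjusted p = 0.779 from limma) was the highest of the 9. It stayed above 0 under all 23 alternatives, between 0.072 and 0.29 (0.14 without WT replicate 5), although other filters and the replicate block cannot change it. The exact permutation test gave p = 0.143. Per TPM of *Kcna1* and *Kcna2* together, *Kcnab2* had 0.513 ± 0.0735 in the mutant and 0.481 ± 0.101 in WT mice, and the values overlapped.

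Of the Kv4 channels, *Kcnd2* encodes Kv4.2, the main pore subunit of the A-type current of granule cells. Chromosome 6 carries it on the plus strand from 21215503 to 21729805. Values of 78.4, 59.2, 76.1, 67.8 and 61.9 TPM were measured in mutant replicates 1 to 5, against 80.2, 73.1, 60.2, 71.0 and 65.4 TPM in WT replicates 1 to 5. The 2 groups covered nearly the same range. The means were 68.7 ± 8.45 TPM in the mutant and 70.0 ± 7.60 TPM in WT cerebella (SD, n = 5 each). The log2 fold change of -0.03 had the narrowest interval of the 9 (-0.28 to 0.22, adjusted p = 0.954 from limma), and it was between -0.082 and 0.022 when any 1 library was left out, above 0 without WT replicate 1 (0.021), mutant replicate 2 (0.022) or mutant replicate 5 (0.006). Per 100 TPM of granule cell markers, *Kcnd2* had 1.97 ± 0.266 TPM in the mutant and 1.86 ± 0.0649 TPM in WT libraries, so that the mean was higher in the mutant on this scale and lower in TPM, and the values overlapped on both.

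*Kcnd3* encodes Kv4.3, found in granule cells, in Purkinje cells and in interneurons of the molecular layer. The gene is on the plus strand of chromosome 3, from 105452330 to 105674002. The mutant mice, replicates 1 to 5, had 28.5, 28.7, 23.4, 26.0 and 14.7 TPM, against 26.2, 28.8, 22.7, 25.2 and 9.52 TPM in WT replicates 1 to 5. In each genotype 4 mice lay between 22.7 and 28.8 TPM, and replicate 5 lay below them. The labels do not say that a replicate number is shared by a litter or a batch. The means were 24.3 ± 5.76 TPM in the mutant and 22.5 ± 7.58 TPM in WT cerebella, with a log2 fold change of 0.16 (95% interval -0.49 to 0.82, adjusted p = 0.899 from limma), which was -0.12 without WT replicate 5 and 0.33 without mutant replicate 5. The ratio of *Kcnd2* to *Kcnd3* was 4.21 in mutant replicate 5 and 6.88 in WT replicate 5, against 2.06 to 3.26 in the other mutants and 2.54 to 3.06 in the other WT mice.

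*Kcnip4* encodes KChIP4, a calcium-binding protein that binds Kv4 channels and changes their inactivation. With 8 annotated transcripts, it covers 48389502 to 49524907 on the minus strand of chromosome 5. Its level was 9.16, 13.3, 4.05, 11.2 and 19.1 TPM in mutant replicates 1 to 5, against 21.5, 16.2, 1.95, 18.8 and 13.1 TPM in WT replicates 1 to 5. Replicate 3 was the lowest of both genotypes, and the highest value was 4.71 times the lowest in the mutant and 11.0 times the lowest in WT mice. The means were 11.4 ± 5.52 TPM in the mutant and 14.3 ± 7.58 TPM in WT cerebella (SD, n = 5 each). The log2 fold change was -0.14 with an interval of -1.49 to 1.21 (adjusted p = 0.960 from limma). It was -0.75 without WT replicate 3 and above 0 without mutant replicate 3 (0.19), WT replicate 1 (0.097) or WT replicate 4 (0.049).

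Of the calcium-gated channels, *Kcnma1* encodes the pore-forming alpha subunit of the BK channel, which opens with both calcium and voltage. With 38 annotated transcripts, it covers 23289431 to 24014491 on the minus strand of chromosome 14. In mutant replicates 1 to 5 it was at 14.9, 9.56, 2.90, 13.9 and 15.5 TPM, against 20.7, 15.7, 14.6, 7.74 and 1.32 TPM in WT replicates 1 to 5. A single library was far below the others in each genotype, mutant replicate 3 and WT replicate 5. The means were 11.3 ± 5.26 TPM in the mutant and 12.01 ± 7.56 TPM in WT cerebella (SD, n = 5 each). The interval of the log2 fold change was the widest of the 9, from -1.37 to 1.70, which is 0.386- to 3.25-fold (log2 fold change 0.16, adjusted p = 0.959 from limma). Differences inside that interval are not excluded by these libraries. The log2 fold change was -0.50 without WT replicate 5, -0.001 without mutant replicate 5 and 0.59 without mutant replicate 3.

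*Kcnn2* encodes SK2, the small-conductance channel of Purkinje cells, which is opened by calcium alone. The gene is on the plus strand of chromosome 18, from 45268860 to 45686024. Mutant replicates 1 to 5 had 32.8, 28.7, 31.7, 31.7 and 34.9 TPM, against 41.9, 41.7, 24.4, 32.8 and 16.4 TPM in WT replicates 1 to 5. The mutant mice lay close together, with 2 WT mice above all of them and 2 below. The means were 32.0 ± 2.25 TPM in the mutant and 31.4 ± 11.1 TPM in WT cerebella (SD, n = 5 each). Its log2 fold change was 0.10 (95% interval -0.41 to 0.61, adjusted p = 0.922 from limma), and -0.11 without WT replicate 5. The ratio of *Kcnma1* to *Kcnn2* averaged 0.352 ± 0.154 in the mutant and 0.357 ± 0.205 in WT mice.

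In order of their mean over all 10 libraries, the genes were *Kcnc1* (256 TPM), *Kcna1* (91.6 TPM), *Kcnab2* (73.5 TPM), *Kcnd2* (69.3 TPM), *Kcna2* (60.1 TPM), *Kcnn2* (31.7 TPM), *Kcnd3* (23.4 TPM), *Kcnip4* (12.8 TPM) and *Kcnma1* (11.7 TPM). TPM is divided by transcript length, so that levels of different genes can be set side by side. Of the 8 pairs of neighbours in this order, 2 did not overlap over the 10 libraries, *Kcnc1* above *Kcna1* and *Kcna2* above *Kcnn2*. *Kcnn2* was also above *Kcnd3* within each of the 10 libraries, although their ranges overlapped. *Kcnab2* was above *Kcnd2* in 7 of the 10 libraries and *Kcnip4* above *Kcnma1* in 7, so that the order of these neighbours differed between mice.

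The spread between mice differed widely between the genes. The coefficient of variation of *Kcnn2* was 7.03% in the mutant and 35.2% in WT mice, and that of *Kcna2* was 8.19% in the mutant and 26.4% in WT mice. Among the 500 genes nearest in level to *Kcnn2* the median was 13.4% in the mutant and 21.6% in WT mice, so a wider spread in WT was shared by other genes of this level. *Kcnma1* varied by 46.4% in the mutant and 62.9% in WT mice, and *Kcnip4* by 48.5% in the mutant and 52.9% in WT mice, each above at least 89.2% of the 500 genes nearest in level. *Kcnd2* varied the least in WT mice, by 10.9%, against 12.3% in the mutant.

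The spread within WT followed the libraries. Relative to the WT mean of each gene on the log2 scale, the median deviation of the 9 genes was between 0.01 and 0.17 in the mutant libraries, against 0.41, 0.45, -0.21, 0.14 and -0.46 in WT replicates 1 to 5. The 2 WT libraries below 0 were those with the lowest mitochondrial mRNA sums of the 10, 23124 TPM in replicate 3 and 15206 TPM in replicate 5. The median deviation of all genes tested was lower in these 2 libraries as well, at -0.068 in replicate 3 and -0.33 in replicate 5. WT replicate 5 was the lowest of the 10 for 6 of the 9 genes and WT replicate 1 the highest for 5. When the mitochondrial mRNA sum entered the model as a covariate, the median of the 9 was -0.23 and that of all genes -0.10, and 0 of the 9 passed the threshold. The part of RNA quality in these values was not tested.

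**Figure D3:**
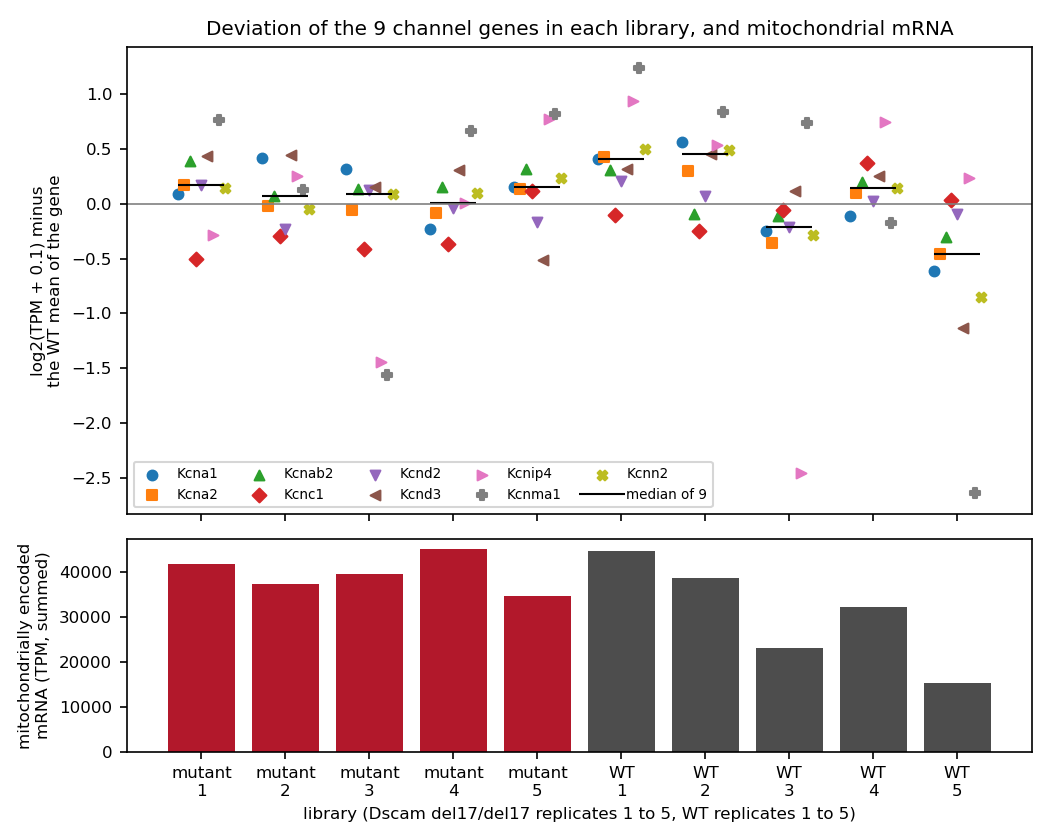
Upper panel, log2(TPM + 0.1) of each of the 9 genes minus its WT mean in each library, with the median of the 9 as a line and the mutant libraries left of the WT libraries; lower panel, summed TPM of the mitochondrially encoded mRNAs. The medians lay between 0.01 and 0.17 in the mutant libraries and between -0.46 (replicate 5) and 0.45 (replicate 2) in the WT libraries, and the mitochondrial sum was lowest in WT replicate 5 (15206 TPM).

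**Figure D4:**
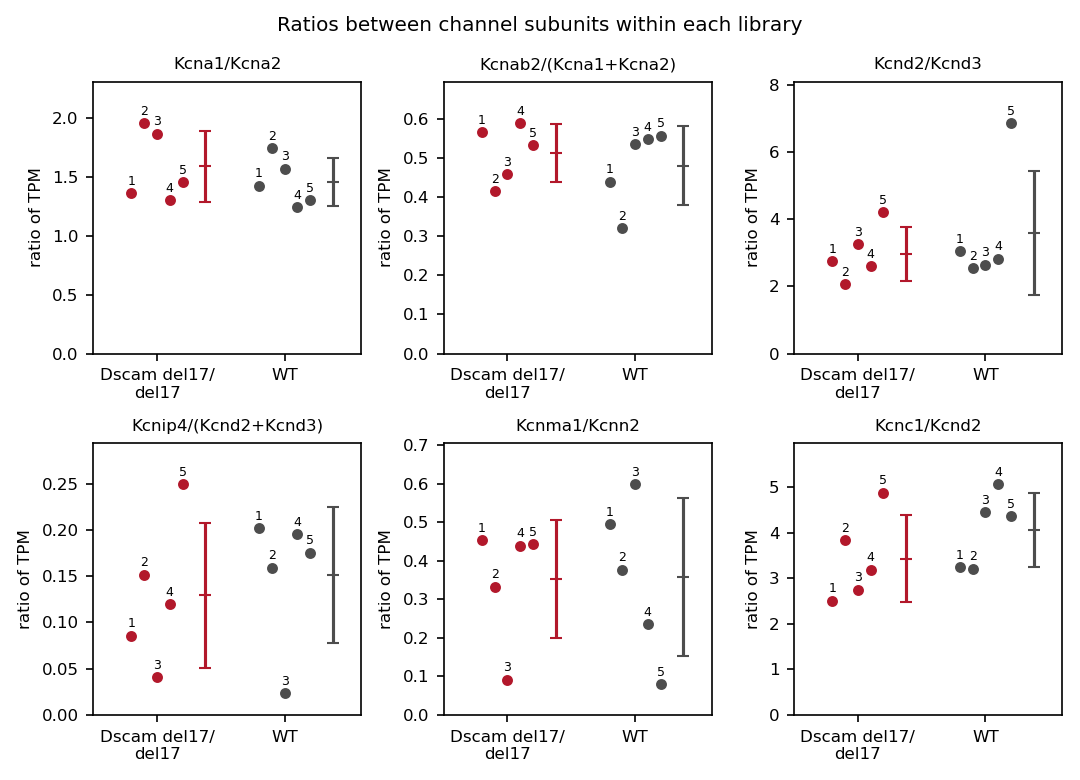
Ratios of TPM within a library between related channel genes (y axis, no unit), with 1 point per mouse (Dscam del17/del17 left of WT) and the mean and SD. The genotypes overlapped for every ratio, and *Kcnd2* to *Kcnd3* was 6.88 in WT replicate 5.

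After subtraction of the genotype means, the genes that varied together most over the 10 libraries were *Kcna2* and *Kcnn2* (Pearson r = 0.94, Spearman rho = 0.90), which share their libraries and the deviations of WT replicates 1, 2 and 5. The correlations of *Kcnc1* were negative with *Kcnd2* (r = -0.43, rho = -0.64), *Kcnd3* (r = -0.43, rho = -0.56) and *Kcna1* (r = -0.29, rho = -0.45), and positive with *Kcnip4* (r = 0.34, rho = 0.32). Among 8342 protein-coding genes averaging 10 TPM or more, the one most like each channel gene over the 10 libraries was *Nup50* for *Kcnn2* (r = 0.99, rho = 0.96), *Rnf152* for *Kcna2* (r = 0.98, rho = 0.95) and *Dpy19l3* for *Kcna1* (r = 0.96, rho = 0.96). It was *Atp6v0d1* for *Kcnab2* (r = 0.96, rho = 0.93) and *Sp4* for *Kcnd2* (r = 0.96, rho = 0.92). For these 5 genes r stayed at 0.93 or above without the 2 libraries farthest from the median. It was 0.86 for *Kcnc1* with *Cnpy3* (0.98 over all 10 libraries, rho = 0.94), 0.82 for *Kcnd3* with *Tnpo3* (0.98, rho = 0.95), 0.82 for *Kcnip4* with *Mpp3* (0.95, rho = 0.89) and 0.68 for *Kcnma1* with *Lrrc49* (0.97, rho = 0.89), whose likeness rested most on these 2 libraries. Each is the highest of 8342 values, and they are given as a description.

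Of the other pore subunits of voltage-gated potassium channels, 35 were listed and 22 passed the filter, and 8 were below 0.5 TPM in all libraries. Of the 22, 10 were above 0 and 12 below on the log2 fold change (median -0.02), and 0 passed the threshold in limma. *Kcna6*, which encodes Kv1.6, was the only one of the 22 with an unadjusted p below 0.05 in limma. It had 28.4, 37.6, 29.6, 33.5 and 36.7 TPM in mutant replicates 1 to 5, against 27.6, 24.2, 31.4, 25.7 and 26.3 TPM in WT replicates 1 to 5 (log2 fold change 0.29, adjusted p = 0.779 from limma, exact permutation p = 0.0317). The values overlapped through WT replicate 3. *Kcnh1*, which encodes the ether-à-go-go channel Kv10.1, had 14.7 ± 1.31 TPM in the mutant and 18.8 ± 3.26 TPM in WT cerebella (log2 fold change -0.34, adjusted p = 0.779 from limma), and the exact permutation test gave p = 0.0317. *Kcnq3*, a subunit of the M-current channel, had 3.95 TPM in the mutant and 2.84 TPM in WT cerebella (log2 fold change 0.45). *Kcng4*, which encodes the modifier subunit Kv6.4, had 92.6 TPM in the mutant and 83.8 TPM in WT cerebella (log2 fold change 0.13, and 0.037 without mutant replicate 1 or 0.076 without WT replicate 2).

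Of 12 further auxiliary subunits of Kv channels, 9 passed the filter, 5 above 0 and 4 below (median 0.21), with 0 past the threshold in limma and 0 at an unadjusted p below 0.05. *Dpp6* and *Dpp10*, which encode peptidase-like partners of Kv4 channels, had 103 and 25.0 TPM in the mutant, against 115 and 16.4 TPM in WT cerebella (log2 fold changes -0.16 and 0.66). *Dpp10* was at 5.88 TPM in WT replicate 5, the lowest of the 10, and its log2 fold change was 0.33 without that library and 0.099 with mitochondrial mRNA as a covariate. *Kcnip3*, which encodes KChIP3, also known as the calcium sensor DREAM, had 68.3 TPM in the mutant and 81.6 TPM in WT cerebella (log2 fold change -0.25). *Kcne2*, an accessory subunit that is also a marker of the choroid plexus, had 4.21 TPM in the mutant and 6.70 TPM in WT cerebella (log2 fold change -0.63). The choroid plexus markers, of which *Kcne2* is 1 of 7, summed to 1933 to 3417 TPM in the mutant and 1805 to 3415 TPM in WT libraries. Most of that sum was *Ttr*, named after its values were seen, with means of 2641 TPM in the mutant and 2818 TPM in WT libraries. The part of these markers in the *Kcne2* value was not tested. *Kcne4*, at the filter's edge, had 0.702 TPM in the mutant and 0.401 TPM in WT cerebella (log2 fold change 0.90). That of *Kcne4* was 0.40 without WT replicate 5, and 0.29 or 1.56 when 1 or 0.01 TPM was added in place of 0.1.

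Of 14 subunits of calcium- and sodium-gated channels, 6 passed the filter, 4 above 0 and 2 below (median 0.11), with 0 past the threshold in limma and 0 at an unadjusted p below 0.05. *Kcnt1*, which encodes the sodium-gated channel Slack, had the highest level of these, with means of 181 TPM in both genotypes (log2 fold change 0.01, between -0.078 and 0.080 when a library was left out). *Kcnmb4*, the neuronal beta subunit of BK channels, had 45.2, 95.1, 69.9, 79.8 and 55.8 TPM in mutant replicates 1 to 5, against 64.4, 61.7, 94.9, 102 and 111 TPM in WT replicates 1 to 5 (log2 fold change -0.33, adjusted p = 0.779 from limma). The log2 fold change of *Kcnmb4* was -0.19 without mutant replicate 1 and -0.11 with mitochondrial mRNA as a covariate. The values overlapped, and *Kcnmb4* was highest in the WT library in which *Kcnma1* was lowest. *Kcnn1*, which encodes SK1, had 3.48 TPM in the mutant and 4.27 TPM in WT cerebella (log2 fold change -0.43). Without mutant replicate 1 that of *Kcnn1* was -0.23, without WT replicate 4 it was -0.26, and without mutant replicate 3 it was -0.75. *Lrrc38* and *Lrrc55*, which encode gamma subunits of BK channels, had 6.53 and 1.34 TPM in the mutant and 5.90 and 1.07 TPM in WT cerebella (log2 fold changes 0.21 and 0.66), and without WT replicate 5 that of *Lrrc55* was -0.10 and that of *Lrrc38* 0.42. *Lrrc38* was at 0.12 without WT replicate 2 and at 0.13 without WT replicate 3.

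Over these 37 further channel subunits together, 19 were above 0 and 18 below, with a median of 0.01, and 28 were under 0.5 in size. A single one had an unadjusted p below 0.05, which is 2.70%, against 5.55% of all genes tested.

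Transcripts of proteins that bind or place Kv1 channels at axons and terminals, or belong to the same families, passed the filter for 14 of 14 genes, with 8 above 0 and 6 below (median 0.10) and 0 past the threshold in limma. At an unadjusted p below 0.05 limma took 3 of the 14, *Lgi2* above 0 and *Lgi4* and *Cntn2* below, against 5.55% of all genes tested (2.29% higher and 3.26% lower in the mutant). *Lgi4*, which encodes a secreted protein that glia use in myelination and that binds ADAM receptors, had 25.5, 26.0, 30.6, 27.4 and 28.3 TPM in mutant replicates 1 to 5, against 36.9, 30.8, 41.9, 38.7 and 48.0 TPM in WT replicates 1 to 5. All mutant values lay below all WT values, which was so for 0.798% of all genes tested, and no other of the 14 had groups that did not overlap. The means were 27.5 ± 2.02 TPM in the mutant and 39.3 ± 6.35 TPM in WT cerebella (SD, n = 5 each), with a log2 fold change of -0.50 (95% interval -0.785 to -0.21, adjusted p = 0.779 from limma). The exact permutation test gave p = 0.0079. The log2 fold change stayed between -0.58 and -0.35 under all 23 alternatives, although other filters and the replicate block cannot change it.

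*Cntn2*, which encodes contactin-2, the partner of Caspr2 beside the node of Ranvier, had 130 TPM in the mutant and 154 TPM in WT cerebella (log2 fold change -0.24, adjusted p = 0.779 from limma). *Lgi2*, also a marker of Golgi cells, had 33.0 TPM in the mutant and 25.9 TPM in WT cerebella (log2 fold change 0.37, adjusted p = 0.779 from limma). *Adam11*, which encodes the receptor that places Kv1 channels at basket cell terminals, had 297 TPM in the mutant and 339 TPM in WT cerebella (log2 fold change -0.19, and -0.12 without WT replicate 5). *Dlg4*, which encodes the scaffold PSD-95, had 144 TPM in the mutant and 158 TPM in WT cerebella (log2 fold change -0.14, and -0.090 without mutant replicate 4). Oligodendrocyte markers ran the other way from *Lgi4* and *Cntn2*, with 11 of 12 above 0 (median 0.44). At an unadjusted p below 0.05 limma took 4 of the 12 as higher in the mutant, against 2.29% of all genes tested. For 2 of the 12 all mutant values lay above all WT values, against 0.419% of all genes tested. The markers summed to 7104 to 8316 TPM in the mutant and 5537 to 8125 TPM in WT libraries, lowest in WT replicate 5. The part of any cell type in the *Lgi4* and *Cntn2* values was not tested.

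**Figure D5:**
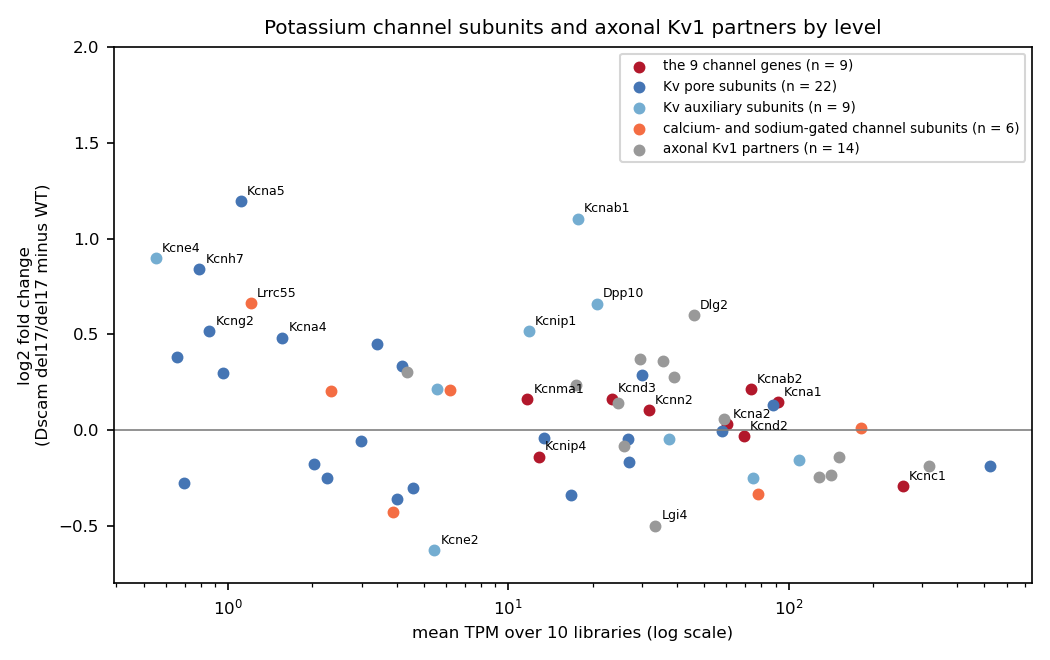
Log2 fold change (Dscam del17/del17 minus WT) against the mean TPM over 10 libraries (log axis) for the 9 channel genes, the further subunits and the axonal Kv1 partners, 1 point per gene. Names are given for the 9 and for genes of about 0.5 or more in size, these last chosen after their values were seen, and none of the points passed the threshold in limma.

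The markers of the neurons that use these channels were measured in all libraries and overlapped between the genotypes as sums. Purkinje cell markers summed to 5416 to 6694 TPM in the mutant and 5499 to 6272 TPM in WT libraries. Of these 12 genes, 9 were above 0 (median 0.12). Markers of molecular layer interneurons, basket cells included, summed to 1720 to 1956 TPM in the mutant and 1276 to 1924 TPM in WT libraries. Of these 9 genes, 7 were above 0 (median 0.17). Most of that sum was *Pvalb*, named after its values were seen, with means of 1650 TPM in the mutant and 1413 TPM in WT libraries. That sum thus mostly follows 1 gene and is not a measure of these interneurons alone. Markers of the neighbouring brainstem and midbrain were low, with 13 of 19 genes below 0.5 TPM in all libraries. The 4 that passed the filter were all above 0 (median 1.29), 3 of them at an unadjusted p below 0.05 in limma, against 2.29% of all genes tested. These 3 were *Th*, *Dbh* and *Slc17a6*, named after their values were seen. *Dbh* was at 0.685 to 1.45 TPM in the mutant and at 0 to 0.458 TPM in WT libraries. It thus passed the filter only through the mutant libraries, and its place in these counts is not independent of that filter. The list summed to 9.11 to 21.2 TPM in the mutant and 3.66 to 11.3 TPM in WT libraries. The part of these cell types in the values of the channel genes was not tested.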

How the data were processed

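RNA of P21 cerebella was sequenced by the authors from directional libraries, 1 per mouse, with 151 cycles. The authors trimmed reads with Trimmomatic, aligned them to GRCm38 with HISAT2 and obtained TPM for each Ensembl gene from StringTie. The deposited TPM values are scaled per library and per transcript length, and the authors' read counts and DESeq2 comparison were not used here. The annotation release and strand setting are not given in the sources used here. The libraries listed 53447 genes, 191 of them without an entry in GENCODE M21.

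Groups followed the labels. The 17168 genes with at least 0.5 TPM in at least 5 libraries were compared as log2(TPM + 0.1) with limma (version 3.58.1, R version 4.3.3), using empirical Bayes moderation with a variance trend and no covariates, Benjamini-Hochberg adjustment over all genes tested and a threshold of 0.05. The added 0.1 TPM draws fold changes of low genes toward 0. Intervals are 95% intervals of that model. For single genes, an exact permutation test (two-sided) over the 252 divisions of the 10 libraries was added. The fit was tested on simulated data with 200 changed genes. Sequences, positions and transcripts are from GENCODE M21 on GRCm38; coding sequences were translated to find the filter, and paralogs were aligned with scripts in Python (version 3.11.15).

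The channel genes and the gene lists were chosen with earlier results of these data known. Genes named are the 9 channel genes, *Dscam*, of each list the 4 measured genes of smallest p and the 2 of highest mean, and for each channel gene the protein-coding gene of at least 10 TPM with the highest Pearson r; 1 gene that this rule names is not reported here. Alternatives were other filters, added values and scalings, covariates, library weights, the replicate number as a block and libraries left out. All 23 are summarised in the closing section. Replicates were 1 mouse each, so the SD spans mice and preparation.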

Additional observations from a re-analysis of the deposited data

Results flagged for a closer look

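Within a genotype, 1 mouse stood apart for 3 of the 60 groups of 5 values looked at (30 genes in 2 genotypes), which is also the number of about 1 in 20 that chance gives. *Kcnc1* was at 302 TPM in mutant replicate 5, against 227 TPM in the next mutant, and this mouse lay among the WT values. *Lrrc38*, a gamma subunit of BK channels, was at 10.1 TPM in WT replicate 5, against 5.75 TPM in the next WT mouse. *Dlg4* was at 125 TPM in mutant replicate 4, against 145 TPM in the next mutant.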

How the results depend on the processing

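Over the 23 alternatives 0 of the 9 channel genes passed the threshold in limma, and 0 genes of all tested did, except 1 gene without mutant replicate 4 (*1500004A13Rik*, named after its value was seen). At an unadjusted p below 0.05 limma took *Kcnc1* in 3 of the 23 alternatives, *Kcnab2* in 2 and *Kcnn2* in 1. *Kcnc1* stayed below 0 and *Kcnab2* above 0 in all 23, and the other 7 channel genes had both signs. Of the 23, other filters, protein-coding genes alone included, and the replicate block cannot change a fold change. The median log2 fold change of the 9 was 0.10, and 0.039 after quantile normalization, -0.079 with array weights, -0.23 with mitochondrial mRNA as a covariate, -0.24 without WT replicates 3 and 5, and between -0.084 and 0.23 with 1 library left out. With that covariate the log2 fold change was -0.14 for *Kcna1*, -0.23 for *Kcna2*, -0.28 for *Kcnd3*, -0.77 for *Kcnma1* and -0.29 for *Kcnn2*. It was -0.45 for *Lrrc55* and -0.010 for *Kcnt1*. Of the 9 channel genes, *Kcnab2* (0.072), *Kcnd2* (-0.13) and *Kcnip4* (-0.51) kept their sign but moved by over 1.5 times. So did *Kcnh1* (-0.23), *Kcnq3* (0.22), *Kcne2* (-0.9998), *Kcne4* (0.32), *Lrrc38* (0.45) and *Lgi2* (0.20). *Cntn2* (-0.12), *Adam11* (-0.076) and *Dlg4* (-0.079) did so too, besides *Dpp10* (0.099) and *Kcnmb4* (-0.11). Without WT replicates 3 and 5 the log2 fold change was -0.14 for *Kcna1*, -0.24 for *Kcna2*, -0.18 for *Kcnd3*, -0.47 for *Kcnma1*, -0.27 for *Kcnn2*, -0.18 for *Lrrc55* and -0.030 for *Kcnt1*. With array weights it was -0.085 for *Kcna2*, -0.040 for *Kcnd3*, -0.36 for *Kcnma1*, -0.079 for *Kcnn2* and -0.051 for *Kcnt1*. Quantile normalization gave 0.0033 for *Kcnd2*, median-of-ratios scaling -0.0038 for *Kcna2* and -0.027 for *Kcnt1*, and an equal sum of listed TPM -0.010 for *Kcnt1*. With 1 library left out the ranges were -0.0063 to 0.29 for *Kcna1*, -0.084 to 0.14 for *Kcna2*, -0.082 to 0.022 for *Kcnd2*, -0.12 to 0.33 for *Kcnd3*, -0.75 to 0.19 for *Kcnip4*, -0.50 to 0.59 for *Kcnma1*, -0.11 to 0.23 for *Kcnn2*, -0.10 to 0.96 for *Lrrc55* and -0.078 to 0.080 for *Kcnt1*. The causes were not tested. With the replicate number as a block, 0 genes passed and the fold changes were the same (median of the 9 0.10). Same-numbered libraries deviated together with correlations of 0.0079 to 0.098, against -0.12 to 0.058 for libraries of different numbers. These correlations do not exclude pairs. The labels mark none, and the numbers were not taken as pairs. *Lrrc55* and *Kcne4* had no value with a minimum of 1 TPM in all libraries. With 5 mice a group and unknown depth, differences inside the intervals given are not excluded by these data, least of all for *Kcnma1* and *Kcnip4*.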

Other observations

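*Kcnab1*, which encodes Kvβ1, a beta subunit that can inactivate Kv1 channels, was among the listed genes with the largest log2 fold change, and was named after its values were seen. It ranged from 2.18 to 36.8 TPM (median 21.4) in the mutant and from 1.41 to 39.4 TPM (median 7.58) in WT cerebella, with a log2 fold change of 1.10 (95% interval -0.81 to 3.02, adjusted p = 0.785 from limma). *Dlg2*, which encodes the scaffold PSD-93 of Kv1 channels, also chosen after its values were seen, ranged from 24.9 to 65.7 TPM (median 57.6) in the mutant and from 7.60 to 99.0 TPM (median 26.5) in WT cerebella (log2 fold change 0.60, adjusted p = 0.813 from limma). Both genes varied between mice of a genotype by more than the genotypes differed.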
